A study of Mus musculus with 5 samples.

Results

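The 10 genes described here encode chaperones of the cytosol, and Chordc1, a partner of the chaperone HSP90. They were found as the entries of the deposited count table whose Ensembl identifiers carry the symbols Hspa1a, Hspa1b, Hspb1, Dnajb1, Dnaja1, Hsph1, Hsp90aa1, Hspa8, Chordc1 and Cryab in the GRCm38 annotation. All 10 were found among the 55471 identifiers of the table, and all 10 were abundant enough to be among the 16052 genes tested. Polyadenylated RNA of the spinal cord was sequenced from males of strain C57BL/6J, all resting and 3 months old. Wild type mice (WT, Lhx1os +/+) gave 3 libraries and knockout mice (KO, Lhx1os -/-) gave 2. The disrupted product, Lhx1os, is a long non-coding RNA. In the KO line, Cas9 with a single guide against its second exon placed a synthetic polyadenylation signal followed by polymerase-destabilising MAZ elements, so the change is present in every cell of the animal. The labels do not say how many founders the line came from, or which stretch of the cord was taken. Libraries held 15973063 to 19437533 counts.

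The heat shock response raises the chaperone supply of a cell when proteins unfold. Its master factor, HSF1, is held inactive at rest, forms trimers under stress and binds heat shock elements, which are arrays of the short unit nGAAn in alternating orientation. HSP70 proteins such as Hspa8 and Hspa1a bind exposed stretches of client proteins, J-domain proteins such as Dnajb1 and Dnaja1 deliver the clients, Hsph1 exchanges the nucleotide, HSP90 finishes the folding of selected clients, and small heat shock proteins such as Hspb1 and Cryab hold unfolded proteins back from aggregation. Some members are made at all times and others chiefly under stress. Motor neurons of the cord are known for a high threshold for inducing this response.

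Letters of heat shock elements were searched in the promoter windows that RefSeq gives for GRCm38.p6, each from 250 bases before to 50 bases after a start site. Windows were found for 7 of the 10 genes, all but Hsp90aa1, Hspa8 and Cryab. A pair of units (GAANNTTC or TTCNNGAA, a set that reads the same on both strands) occurs in 15.1% of all 32851 windows, and a run of 3 units (such a pair, then any 2 bases and a further GAA after TTC or TTC after GAA) in 0.603%. Of the 7 genes, 6 held a pair, the exception being Dnajb1, and 2, Chordc1 and Hsph1, held a run of 3 units. Only exact letters were searched, so units that differ by a letter were not counted. These genes have 11 windows in all, some of them overlapping, of which 7 held a pair and 3 a run of 3 units. Dnaja1 held its pair in 1 of 3 windows. The stretches below, a selection of the matches, show how the arrays differ between the genes. Left out are another pair of Hspb1, beginning 97 bases before the start site, and a further pair of Chordc1 downstream of its array. A separate pair of Hsph1, beginning 33 bases before the start site of its first window, is also left out. Each printed stretch is given 5′ to 3′ on the strand of its gene, with the fixed letters of the units in capitals.
Chordc1, chr9:18292259-18292288, plus strand: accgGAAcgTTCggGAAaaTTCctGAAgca
Hsph1, chr5:149636287-149636316, minus strand: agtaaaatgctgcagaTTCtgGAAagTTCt
Hspb1, chr5:135887791-135887820, plus strand: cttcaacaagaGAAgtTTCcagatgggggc
Dnaja1, chr4:40722333-40722362, plus strand: aaaagcctctaGAAaaTTCtacgaggctcg
Hspa1a, upstream region of 250 bases, chr17:34972157-34972406, minus strand: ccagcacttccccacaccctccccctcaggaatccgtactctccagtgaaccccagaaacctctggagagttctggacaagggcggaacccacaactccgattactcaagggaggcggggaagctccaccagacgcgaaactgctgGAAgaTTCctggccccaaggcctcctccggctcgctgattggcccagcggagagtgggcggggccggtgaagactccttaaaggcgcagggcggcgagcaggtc
In Chordc1 the overlapping runs form an unbroken array across the RefSeq start site, from 4 bases before it. The start site lies at base 18292267, inside the GENCODE gene model, which begins upstream at 18292125. The 250 bases upstream of Hspa1a and Hspa1b differ at 3 positions and hold the same pair of units, beginning 104 bases before the start site, so they are not independent entries in these counts. These matches describe the letters in each window and are not evidence of binding.

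Levels of the 10 genes spanned a wide range in cord. In CPM (counts scaled to a common library size, with TMM factors) per kilobase of the main coding transcript, averaged over the 5 libraries, Hspa8, the constitutive HSP70, stood highest at 691.3, followed by the HSP90 gene Hsp90aa1 at 326.4 and Cryab at 232.8. The HSP110 gene Hsph1 reached 84.7, the J-domain gene Dnaja1 41.5, Hspb1 25.1, the J-domain gene Dnajb1 17.3 and Chordc1 15.9. The stress-inducible HSP70 genes Hspa1a and Hspa1b were lowest, at 2.34 and 1.87 CPM per kilobase. Library values overlapped for the neighbouring pairs Hspb1 with Dnajb1, Dnajb1 with Chordc1, and Hspa1a with Hspa1b, so the order within these pairs is not resolved. Lengths taken over all annotated exons gave the same order, with Hspa1a and Hspa1b unchanged and the others lower, furthest for 3 genes, at 384.8 for Hspa8, 44.3 for Hsph1 and 27.1 for Dnaja1.

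The identity of some counts is uncertain because close copies exist elsewhere in the genome. Of the stretches of 75 bases in the main transcript, 61.7% for Hspa1a and 55.8% for Hspa1b also occur in a transcript of another gene, chiefly in each other. The share was 68.6% for Hspa8, 53.1% for Hsp90aa1 and 57.7% for Hspb1, largely with processed copies, and 26.2% for Dnaja1. For Dnajb1, Hsph1 and Chordc1 no such stretch was shared. Cryab shared 17.1% with Hspb2, which overlaps it on the opposite strand. Dnaja1 overlaps 608 exon bases of Smu1 and Hspa1a overlaps 564 of Gm20481, also on opposite strands. How the counting treated reads with several matches, and whether it used strand, is not given in the sources used here. Levels of these genes, set beside others above, depend on that treatment.

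Between genotypes, none of the 10 genes passed the adjusted test. By the quasi-likelihood test of edgeR with Benjamini-Hochberg adjustment, 0 of 10 had an adjusted p under 0.05, against 3 of all 16052 genes (0.0187%). DESeq2 also called 0 of the 10 (0.246% of all genes). At an unadjusted p under 0.05 there was 1 member, Chordc1, where 7.57% of all genes reached that level. Point estimates were below 0 for 8 members and above 0 for Dnajb1 and Hspb1, against 48.7% of all genes below 0. The median log2 fold change of the members was −0.08, and that of all genes 0.00. Libraries of the genotypes did not overlap for 2 of 10, Chordc1 and Dnaja1, both lower in KO, where 24.9% of all genes did not overlap in either direction and 11.96% were lower in this way.

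**Figure D1:**
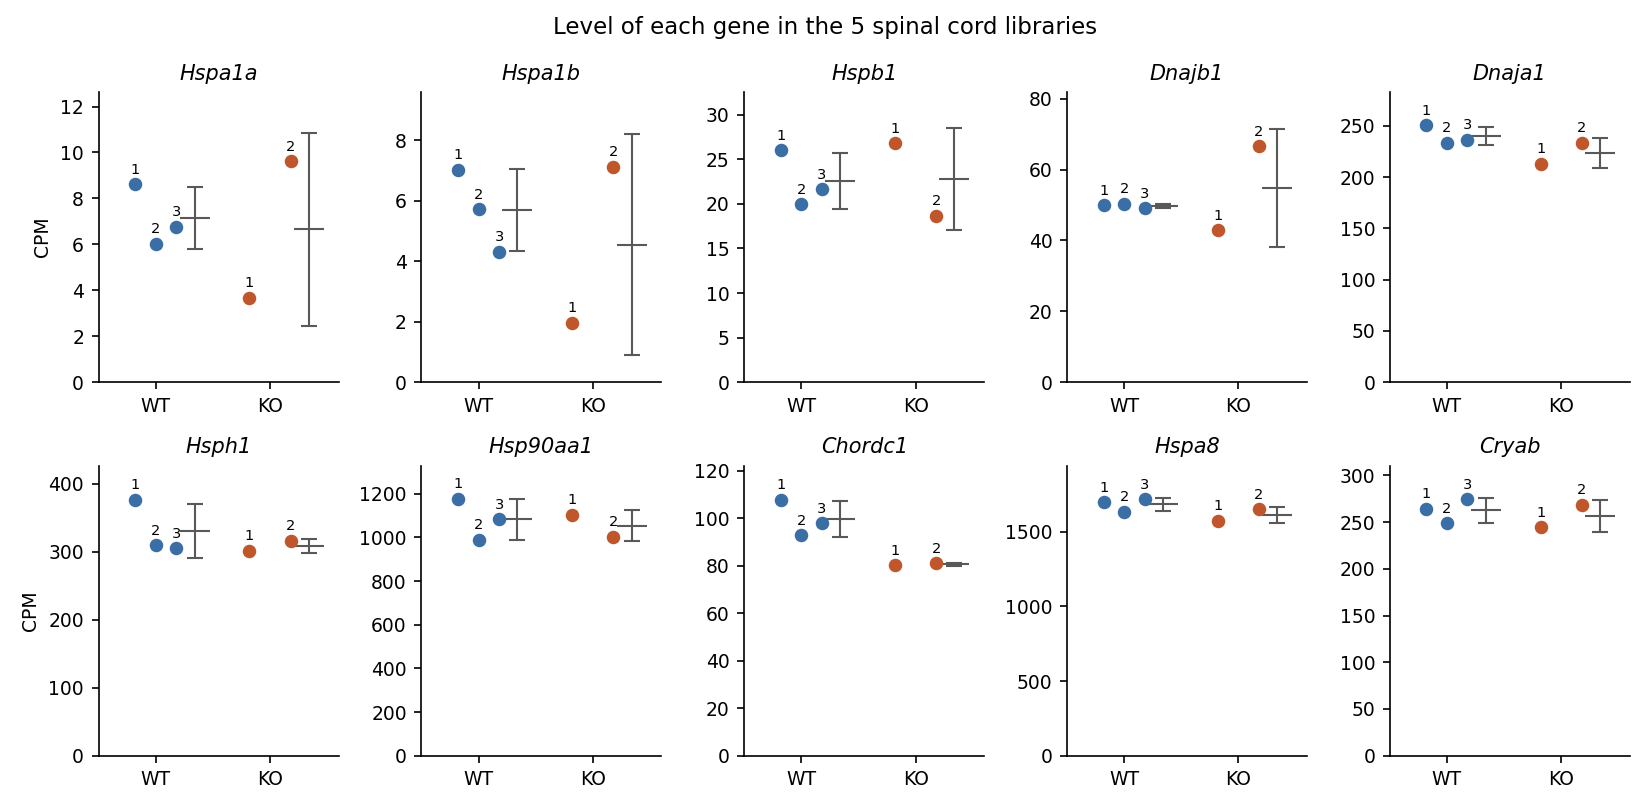
Level of each gene in CPM (y axis, starting at 0) in the WT (blue) and KO (orange) libraries, with replicate numbers beside the points and the mean ± SD of each genotype to their right. Both KO points lie below all WT points for Chordc1 (80.1 and 81.0 CPM) and, narrowly, for Dnaja1. KO points lie on either side of the WT points for Hspa1a, Hspa1b, Dnajb1 and, with the replicates in the opposite order, Hspb1.

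Chordc1 (ENSMUSG00000001774, chromosome 9 from 18292125 to 18317442, plus strand) encodes a zinc-binding protein with CHORD domains that binds HSP90 and is itself induced by heat. It stood at 107.6, 92.9 and 97.9 CPM in the WT libraries and at 80.1 and 81.0 CPM in the KO libraries, from 1295 to 1818 counts each. Both KO libraries lay below all WT libraries, and they differed from each other by less than any pair of WT libraries did. WT averaged 99.5 ± 7.51 CPM (SD, n = 3), and KO averaged 80.5 ± 0.601 CPM (SD, n = 2). Counting error alone would give an SD of about 2.53% of the mean, more than the KO libraries showed. Their closeness is therefore no measure of steadiness. The log2 fold change was −0.30 (SE 0.07; 95% interval −0.47 to −0.14), a KO level 0.810 of that in WT. Its edgeR p of 0.00193 ranked 88 of 16052 genes, and the adjusted p was 0.348, so the difference did not pass. The estimate stayed below 0 under every alternative run, from −0.35 to −0.24, with adjusted p from 0.0614 to 0.935.

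Genes tied to Chordc1 by protein contact showed smaller differences. Hsp90ab1, the constitutive HSP90 gene, averaged 1464 ± 26.3 CPM (SD, n = 3) in WT, and KO averaged 1416 ± 49.98 CPM (SD, n = 2). Its log2 fold change was −0.05 (SE 0.06). Sugt1, a co-chaperone that shares an HSP90-binding fold with Chordc1, had −0.06 (SE 0.07), and Rock1, a kinase gene, −0.12 (SE 0.08). All 4 tested genes of this group were below 0 and 0 passed, and Itgb1bp2, the muscle relative of Chordc1, was too low to test. Relative to Sugt1, per kilobase, Chordc1 amounted to 126.0%, 119.4% and 118.0% in WT and to 105.1% and 99.4% in KO. This within-library ratio did not overlap between the genotypes and was lower in KO. Chordc1 by itself was lower without overlap too, so the ratio is not separate support.

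The genes whose profile over the 5 libraries came closest to that of Chordc1 were Cdc37l1, Dcdc2a and Ccdc88a, among 14866 genes compared. Likeness was the root mean square difference of log2 CPM after centring each gene on its own mean, and it was 0.0149 for Cdc37l1, 0.0165 for Dcdc2a and 0.0221 for Ccdc88a. Cdc37l1 stood at 345.7, 304.0 and 321.7 CPM in WT and 265.4 and 266.1 CPM in KO (log2 fold change −0.28, SE 0.07; adjusted p = 0.335 in edgeR). For Hspa1a the closest genes were Acp7, Zfp456 and Cks2, at 0.118, 0.154 and 0.174. These likenesses are descriptions over 5 libraries and were not tested.

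The HSP70 system was led by Hspa8 (ENSMUSG00000015656, chromosome 9 from 40800984 to 40810087). Hspa8 showed the smallest spread of the 10 genes, a coefficient of variation of 3.43% over the 5 libraries. It stood at 1700, 1635 and 1717 CPM in WT and at 1574 and 1650 CPM in KO, with overlapping groups. The log2 fold change was −0.06 (SE 0.06), and its 95% interval ran from −0.19 to 0.07. Its adjusted p was 0.820 in edgeR.

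Hspa1a and Hspa1b, neighbouring intronless genes on chromosome 17 that encode the stress-inducible HSP70, set the KO libraries apart from each other rather than from WT. Hspa1a had 145, 118 and 110 counts in WT, 60 in KO replicate 1 and 154 in KO replicate 2. Its level was 8.63, 6.03 and 6.77 CPM in WT against 3.68 and 9.63 CPM in KO. Hspa1b stood at 7.02, 5.72 and 4.31 CPM in WT and at 1.96 and 7.13 CPM in KO. For both genes KO replicate 1 was the lowest library and KO replicate 2 the highest, so the groups overlapped fully. The 95% Poisson interval of the Hspa1a count, which covers counting error only, was 45.8 to 77.2 in KO replicate 1 and 131 to 180 in KO replicate 2, and the intervals did not meet.

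The genotype difference of these HSP70 genes was accordingly imprecise. The log2 fold change of Hspa1a was −0.10 (SE 0.33; 95% interval −0.83 to 0.62) and that of Hspa1b −0.33 (SE 0.41; −1.24 to 0.59), with adjusted p of 0.962 and 0.869 in edgeR. Without KO replicate 1 both turned positive, at 0.43 and 0.32. Together, per kilobase, they amounted to 0.762%, 0.596% and 0.533% of Hspa8 in WT and to 0.295% and 0.840% in KO. With lengths taken over all annotated exons these shares were 1.37%, 1.07% and 0.957% in WT and 0.530% and 1.51% in KO, so their size depends on the length used as well as on the treatment of shared sequence. The order of the libraries was the same with both lengths.

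The remaining HSP70 genes gave no passing difference. Hspa2, an HSP70 best known from testis that is also made in brain, stood at −0.19 (SE 0.11), Hspa4l, an HSP110 relative and the most abundant of the list, at −0.07 (SE 0.08), and Hspa13 at −0.07 (SE 0.07). Of 8 genes in the list 7 were tested, of which 6 were below 0 and 0 passed. Hsph1, the HSP110 nucleotide exchange factor of the 10 (chromosome 5 from 149614287 to 149636376), stood at 377.0, 309.7 and 305.1 CPM in WT and 301.6 and 316.2 CPM in KO. WT replicate 1 was its highest library, and the other 4 lay close together. Its log2 fold change was −0.10 (SE 0.09) with all libraries and 0.01 without WT replicate 1.

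**Figure D2:**
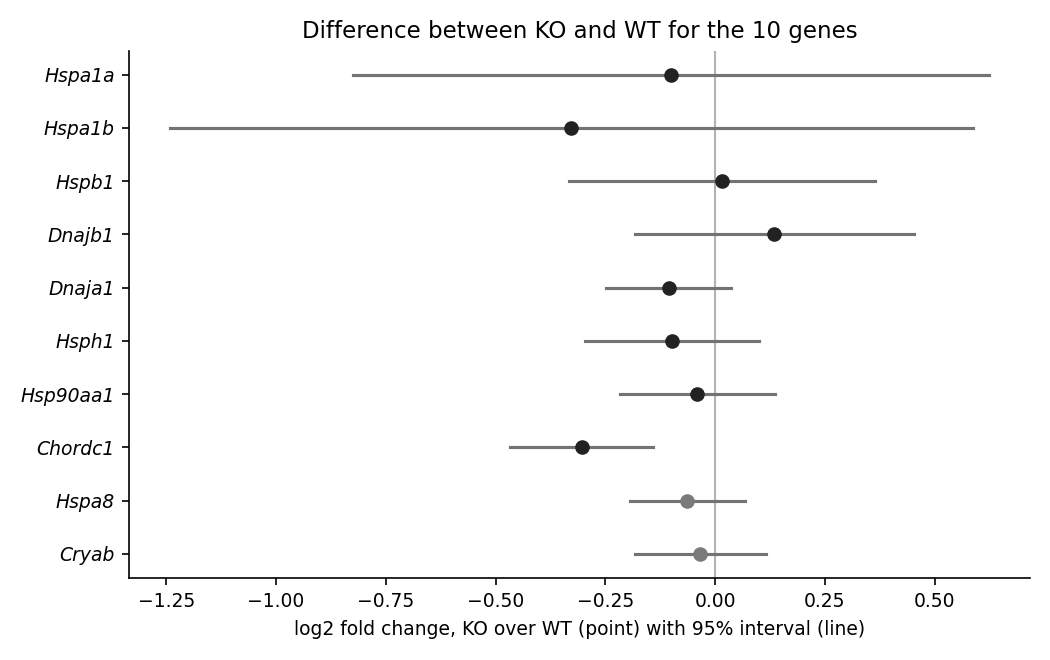
Log2 fold change of KO over WT (x axis) for each gene, as edgeR's estimate (point) with its 95% interval (line); grey points are Hspa8 and Cryab. The interval of Chordc1 lies below 0 before adjustment for the 16052 genes tested, the other 9 intervals include 0, and those of Hspa1a and Hspa1b are the widest.

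The J-domain genes behaved unlike each other. Dnajb1 (chromosome 8 from 83608193 to 83612653), the stress-inducible partner of HSP70 in disaggregation, was steady in WT at 49.9, 50.4 and 49.2 CPM and split in KO, at 42.9 and 66.6 CPM. KO replicate 1 was its lowest library and KO replicate 2 its highest, as for Hspa1a and Hspa1b. Its log2 fold change was 0.14 (SE 0.14; adjusted p = 0.841 in edgeR), and −0.22 without KO replicate 2. Dnaja1 (chromosome 4 from 40722150 to 40737149), a farnesylated J-domain protein made at rest, stood at 250.6, 233.7 and 236.5 CPM in WT and at 212.9 and 233.5 CPM in KO. Its highest KO library lay just under its lowest WT library, and the log2 fold change was −0.11 (SE 0.06; 95% interval −0.25 to 0.04). Per kilobase, Dnajb1 amounted to 37.4%, 40.5% and 39.0% of Dnaja1 in WT and to 37.8% and 53.5% in KO, so only KO replicate 2 stood apart.

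Among 12 other J-domain genes 0 passed, with 3 above and 9 below 0 and a median of −0.02. Dnajb4, a heat-inducible relative of Dnajb1, stood at −0.18 (SE 0.09) and Dnajb5, another of that group, at 0.14 (SE 0.07). Dnajc5, which encodes the cysteine string protein of synaptic vesicles and was the most abundant of the list, stood at 0.06 (SE 0.06). Of the factors that release HSP70 clients or mark them for degradation, 7 of 10 were above 0 and 0 passed. Hspbp1, an exchange factor, stood at 0.15 (SE 0.07), Stub1, the ubiquitin ligase CHIP, at 0.12 (SE 0.06), and St13, the HSP70-interacting protein, at −0.08 (SE 0.06).

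Hsp90aa1 (ENSMUSG00000021270, chromosome 12 from 110690605 to 110702728) encodes the inducible cytosolic HSP90. It stood at 1177, 989 and 1082 CPM in WT and at 1104 and 1003 CPM in KO, both KO values inside the WT range. The log2 fold change was −0.04 (SE 0.08; 95% interval −0.22 to 0.14). Per kilobase it reached 60.5%, 52.5% and 57.3% of Hsp90ab1 in WT and 61.4% and 53.1% in KO, so the balance of the paralogs overlapped between genotypes.

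The list of HSP90 and its co-chaperones was split, with 8 of 15 genes above 0, 7 below and 0 passing. At an unadjusted p under 0.05 there were 4, all lower in KO and without overlap between the groups, where 4.07% of all genes were lower at that level. Another 4, Cdc37, Ppp5c, Unc45a and Nudc, named after their values were seen, were higher in KO without overlap, at log2 fold changes of 0.03 to 0.17. Over all genes 11.96% were lower and 12.93% higher without overlap. This list was chosen with earlier results of these data known. Fkbp5, an immunophilin that acts on the glucocorticoid receptor and is a known target of it, averaged 42.2 ± 6.27 CPM (SD, n = 3) in WT, and KO averaged 30.7 ± 4.62 CPM (SD, n = 2). Its log2 fold change was −0.46 (SE 0.13; adjusted p = 0.479 in edgeR). Ptges3, which encodes the co-chaperone p23, stood at −0.20 (SE 0.07). The other genes of the 4, named after their values were seen, were Ahsa2, an activator of the HSP90 ATPase, at −0.29 (SE 0.11), and the cyclophilin gene Ppid at −0.18 (SE 0.07).

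The small heat shock proteins differed in level and steadiness. Cryab (ENSMUSG00000032060, chromosome 9 from 50751325 to 50756636), which encodes alpha-B-crystallin and is known from oligodendrocytes and astrocytes, stood at 264.5, 248.6 and 274.4 CPM in WT and at 244.4 and 268.5 CPM in KO. The groups overlapped, and its log2 fold change was −0.03 (SE 0.07; 95% interval −0.18 to 0.12). In bulk tissue, fewer cells of a type and less RNA per cell cannot be told apart. The summed level of 8 oligodendrocyte markers was 30623 to 36055 CPM in WT and 31834 to 32121 CPM in KO, and that of 8 astrocyte markers 7526 to 8454 CPM in WT and 7916 to 8086 CPM in KO, overlapping as well.

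Hspb1 (chromosome 5 from 135887919 to 135889563), which motor neurons, astrocytes and vessels are known to make, stood at 26.0, 20.0 and 21.7 CPM in WT and at 26.8 and 18.7 CPM in KO. KO replicate 1 was its highest library and KO replicate 2 its lowest, the reverse of Hspa1a, Hspa1b and Dnajb1. The log2 fold change was 0.02 (SE 0.16), and −0.27 without KO replicate 1. The summed level of 6 endothelial markers was 205.0, 264.7 and 265.5 CPM in WT, 322.4 CPM in KO replicate 1 and 190.0 CPM in KO replicate 2, and its part in the Hspb1 values was not tested. That of 9 skeletal muscle markers, left with Pvalb aside since spinal neurons make it, was 3.88 to 7.56 CPM in WT, 19.7 CPM in KO replicate 1 and 6.56 CPM in KO replicate 2, and its part was not tested either. Of the other small heat shock genes 5 of 6 were tested, with 4 below 0 and 0 passing. They included Hspb8, the most abundant, at −0.06 (SE 0.08), Hspb11 at −0.22 (SE 0.19) and the heart and muscle gene Hspb7 at −1.08 (SE 0.70), at under 1 CPM.

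Inducible and constitutive chaperone genes were set side by side within each library. The 8 inducible genes were the members other than Hspa8 and Cryab. The 10 constitutive genes were Hspa8, Cryab, Hsp90ab1, Hspa4, Hspa2, Dnaja2, Dnaja4, Dnajb6, Dnajc7 and Dnajb2. Cryab and some others also respond to heat, and all 8 inducible genes were also detected in these resting mice, so the division is one of degree. The mean log2 CPM of the inducible genes minus that of the constitutive genes was −1.38, −1.56 and −1.63 in WT and −1.79 and −1.45 in KO. KO replicate 1 was the lowest of the 5 libraries, and KO replicate 2 lay inside the WT range. The low value of KO replicate 1 rests largely on Hspa1a and Hspa1b, which share much of their sequence. Relative to the WT mean they stood at −0.92 and −1.45 there, and the other inducible genes between −0.31 and 0.26. The comparison was not run without this pair. The KO mean minus the WT mean was −0.10, within the pooled SD of 0.17 between libraries. It was 0.07 without KO replicate 1, which turned its sign, and −0.27 without KO replicate 2. Since the genes were chosen with earlier results known, it is given without a test. Taken gene by gene, the log2 fold change was below 0 for 6 of the 8 inducible genes (median −0.10) and for 10 of the 10 constitutive genes (median −0.04), and 0 of either passed.

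**Figure D3:**
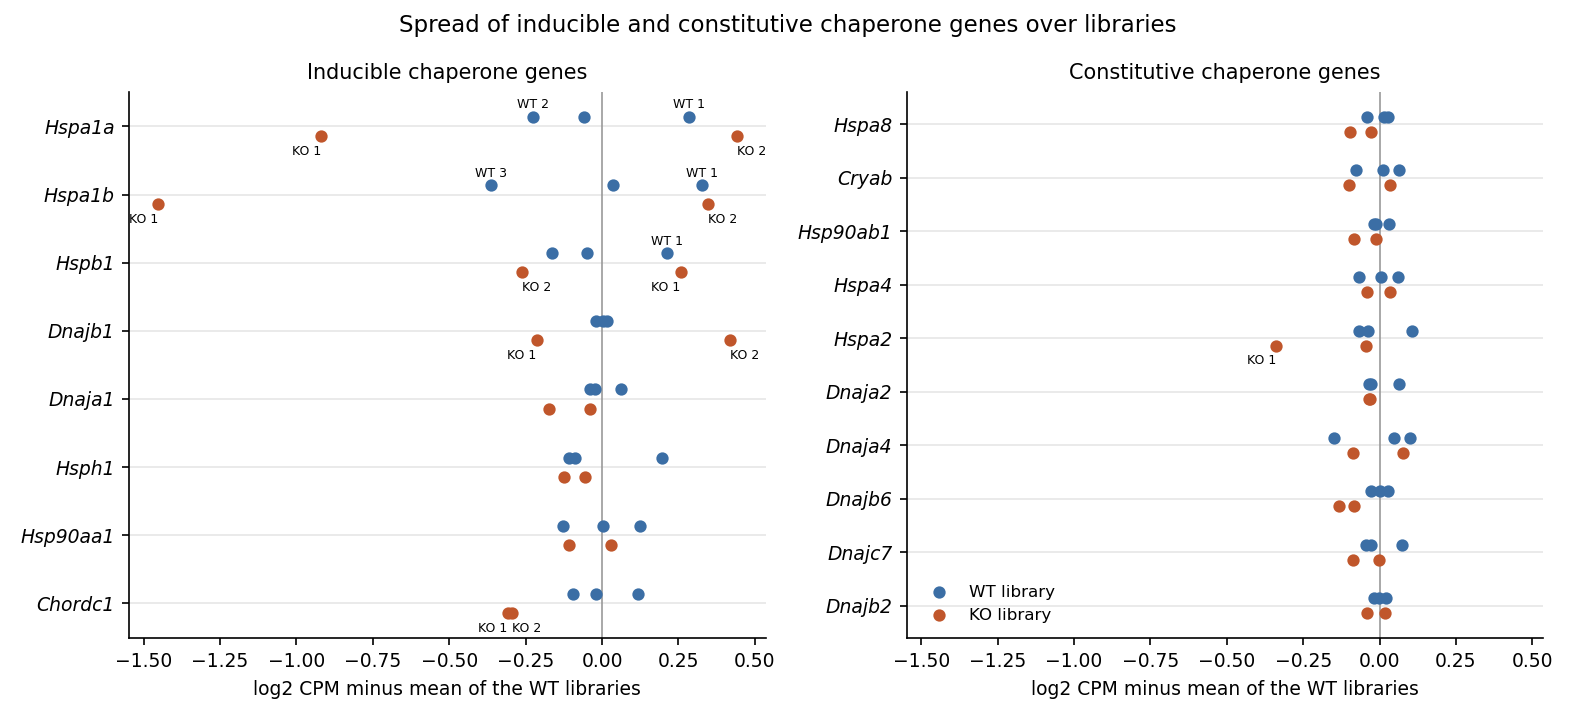
Log2 CPM of each gene in each library minus the mean of the WT libraries (x axis) for inducible genes (left) and constitutive genes (right), WT in blue and KO in orange, with libraries named where they lie beyond 0.2 from that mean. Hspa1a and Hspa1b reach −0.92 and −1.45 in KO replicate 1 and 0.44 and 0.35 in KO replicate 2, while constitutive genes lie near 0 apart from Hspa2 at −0.34 in KO replicate 1.

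Among the 10 genes, spread over libraries was widest for those of lowest level, Hspa1a and Hspa1b. Over the 5 libraries the coefficient of variation was 41.2% for Hspa1b and 33.4% for Hspa1a, where counting alone would give about 10.6% and 9.23%. It was 17.0% for Dnajb1, 16.0% for Hspb1, 12.7% for Chordc1 and 9.72% for Hsph1. Hsp90aa1, Dnaja1, Cryab and Hspa8 lay between 7.21% and 3.43%. For Chordc1, unlike Hspa1a, Hspa1b, Dnajb1 and Hspb1, the KO libraries did not part from each other.

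The heat shock factors themselves gave no passing difference. Hsf1 (38.2, 37.6 and 34.4 CPM in WT, 33.9 and 36.0 in KO) had a log2 fold change of −0.07 (SE 0.08) and Hsf2 of −0.12 (SE 0.09), both named after their values were seen. Hsf4, a factor best known from lens, stood at 0.32 (SE 0.12; adjusted p = 0.626 in edgeR), Hsf5 at 0.51 (SE 0.39) at under 1 CPM, and Hsbp1, a negative regulator of HSF1, at 0.04 (SE 0.06). Of these 5 genes 3 were above 0 and 0 passed. Hsf4 alone reached an unadjusted p under 0.05, where 3.49% of all genes were higher at that level.

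Chaperones of other compartments were read beside the cytosolic genes. In the mitochondrial list 0 of 9 passed, with a median of −0.01. Hspa9, the mitochondrial HSP70 and the most abundant of that list, stood at 0.00 (SE 0.07), and the protease genes Clpp and Lonp1 at 0.11 (SE 0.08) and 0.10 (SE 0.06). In the list of the cytosolic chaperonin TRiC and prefoldin 0 of 14 passed, with a median of −0.04. Its named genes were Cct8 at −0.03 (SE 0.06), the prefoldin gene Vbp1 at −0.15 (SE 0.07) and Pfdn1 at 0.10 (SE 0.07).

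The endoplasmic reticulum (ER) list differed in its counts: 13 of 13 genes were below 0 and without overlap between the groups, with a median of −0.27, though 0 passed over all genes. Of all genes 48.7% were below 0 and 11.96% were lower without overlap. The list was chosen with earlier results of these data known, so its counts are not independent support. Its genes of smallest p were Hspa5 at −0.58 (SE 0.08; adjusted p = 0.0589 in edgeR) and Pdia4 at −0.37 (SE 0.08), and its most abundant was Canx at −0.16 (SE 0.06). The log2 ratio of Hspa5, the ER HSP70, to Hspa8 was −2.51, −2.48 and −2.31 in WT and −2.94 and −2.95 in KO, a difference of −0.51. That of Hsp90b1, the ER HSP90, to Hsp90aa1 was −1.60, −1.42 and −1.38 in WT and −1.72 and −1.64 in KO, a difference of −0.21. Neither ratio overlapped between the genotypes, and both were lower in KO. Hspa5 and Hsp90b1 by themselves were lower without overlap too, so the ratios are not separate support. A two-sided exact permutation test gave p = 0.2 for each of these 2 pairs (adjusted p = 0.2), the smallest that this test allows with 3 libraries against 2, so it could not have passed. The pairs were chosen after the values were seen.

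**Figure D4:**
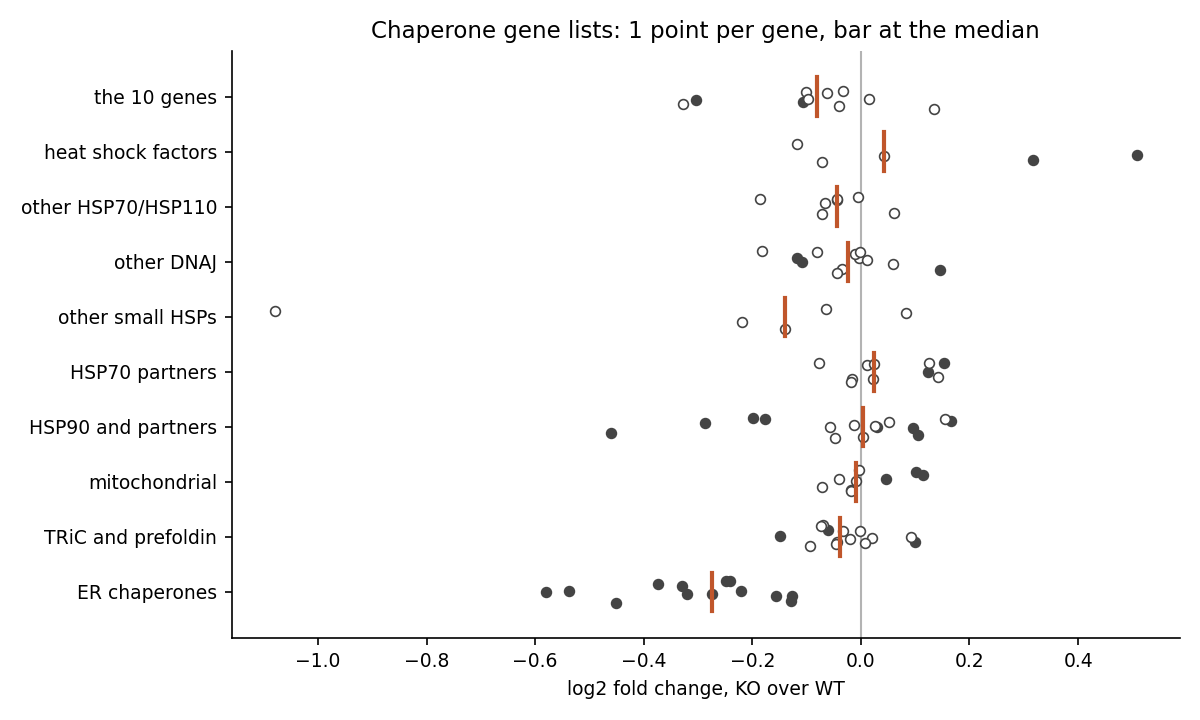
Log2 fold change of KO over WT (x axis) for each tested gene of 10 lists (1 point per gene, vertical bar at the median of the list); filled points mark genes whose WT and KO libraries did not overlap. Medians lie between −0.14 and 0.04 for every list but the ER chaperones, at −0.27. All lists were chosen with earlier results of these data known.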

How the data were processed

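The authors deposited raw counts of reads per gene for the 5 libraries in 1 table. Per the labels' protocols, RNA came from frozen, powdered tissue, with DNase treatment, and libraries from Illumina's TruSeq Stranded mRNA kit. Per the submitters' processing notes, cutadapt, Trimmomatic, STAR 2.5.2b, HTSeq and GRCm38 were used; the sources used here do not give annotation release or strand setting. Grouping followed the titles. Nothing says that libraries came from separate litters or days, so p-values measure only the spread between these samples. Symbols came from GENCODE M21, which matched 55230 of 55471 identifiers.

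Genes were filtered with filterByExpr in edgeR 4.0.16 (minimum count 10, minimum total 15) and compared by the quasi-likelihood F test with TMM factors and Benjamini-Hochberg adjustment over 16052 genes (threshold 0.05). CPM is scaled by the TMM factors; log2 CPM used a prior count of 2. The script was tested on simulated data. Alternatives were other size factors, DESeq2 1.42.0, limma-voom 3.58.1, robust dispersion, other filters, a replicate block, leaving out each library in turn, and Hspa1a and Hspa1b summed. Exon-union length, for levels and for ratios between genes, was added after seeing the data. Lhx1os, the targeted gene, had 56, 66 and 51 counts in WT and 13 and 11 in KO. Its log2 fold change was −2.13 (SE 0.28; adjusted p = 0.0589 in edgeR), so even the targeted gene did not pass the threshold. A gene that did not pass is therefore not shown to be unchanged.

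The members and lists were chosen with earlier results of these data known. Named genes are the members, and from each list any passing gene, the 2 of smallest p and the most abundant. Replicate numbers 1 and 2 occur in both groups, and sample numbers in the labels alternate between WT and KO for them, without a stated meaning. Deviations of same-numbered libraries from their group means correlated at 0.0579 and 0.0020 across genes. With 2 KO libraries these deviations mirror each other, so this check cannot decide whether libraries are paired. The main fit took them as unpaired, and the replicate block was run as an alternative.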

Additional observations from a re-analysis of the deposited data

How the results depend on the processing

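The count of members past the threshold was 0 under all 14 alternatives run, the replicate block included, and Chordc1, Dnaja1 and Hspa8 stayed below 0 in each. The count of all genes past it, 3, became 6 with RLE size factors, 40 with DESeq2, 1 with limma-voom, 12 with robust dispersion, 96 with no low-count filter and 25 with the replicate block (0 members). Leaving out 1 library gave 0 to 58 genes. The cause was not tested. The difference of inducible and constitutive genes ran from −0.27 to 0.07 with 1 library left out, and from −0.11 to −0.07 otherwise.

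With 1 library left out, log2 fold changes ran from −0.95 to 0.43 for Hspa1a, from −1.53 to 0.32 for Hspa1b, from −0.27 to 0.25 for Hspb1, from −0.22 to 0.42 for Dnajb1, from −0.16 to 0.0070 for Hsph1, from −0.11 to 0.026 for Hsp90aa1 and from −0.10 to 0.030 for Cryab, so each sign turned. The highest values came without KO replicate 1 for Hspa1a, Hspa1b, Dnajb1 and Cryab, and without WT replicate 1 for Hsph1. With the replicate block, Hspb1 stood at −0.023. None of these estimates passed. For Hspa1a and Hspa1b, with 32 to 154 counts per library, and for 2 KO libraries, changes smaller than the intervals given are not detectable.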

Other observations

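Immediate early genes, which cells switch on within minutes of a stimulus, were read as a second stress-responsive set. Of 15 genes 12 were above 0 in KO, where 48.7% of all genes were below 0, and 0 passed over all genes. This list too was chosen with earlier results of these data known. At an unadjusted p under 0.05 there were 5, all higher, where 3.49% of all genes were higher at that level. Without overlap between the groups 4 were higher and 0 lower, where 12.93% of all genes were higher and 11.96% lower in this way. The genes of the AP-1 factors Jun and Jund stood at 0.47 (SE 0.09; adjusted p = 0.192 in edgeR) and 0.31 (SE 0.09), and the synaptic plasticity gene Arc at 0.29 (SE 0.09), each with both KO libraries above all WT libraries. The summed level of the 15 genes was 217.2, 254.9 and 202.0 CPM in WT and 247.6 and 286.5 CPM in KO, so the groups overlapped in the sum. KO replicate 2 had the highest sum and also the most Hspa1a, Hspa1b and Dnajb1, while KO replicate 1, the lowest library for those 3 genes, was not low in the sum. Single genes differed from the sum. Fos, Fosb, Fosl2, Egr1 and Nr4a1, named after their values were seen, were lowest in KO replicate 1 and highest in KO replicate 2. Egr1, for example, stood at 26.3 and 44.4 CPM there. The rest of the 15 genes did not have this order, and Jun and Jund were highest in KO replicate 1.

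Processed copies of the chaperone genes held few counts. Gm15459, which holds 64.3% of the stretches of 75 bases of Hspa8, had 118 to 164 counts per library where Hspa8 had 25662 to 32001. Gm12346, which holds 45.0% of those of Hsp90aa1, had 51 to 64 counts, and Hsp25-ps1, which holds 57.7% of those of Hspb1, had 0 to 2. Gm10501, which shares only 5.88% with Hspa1a, is not counted among these copies here. It had 112 to 131 counts per library, where Hspa1a had 60 to 154. The counts of Gm10501 did not follow the drop of Hspa1a in KO replicate 1, where it had 121.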
